A study of Homo sapiens with 6 samples.

Results

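The genes described here are the ZNF genes that A549 cells expressed: 183 protein-coding genes whose symbol is ZNF followed by digits and an optional letter. They were chosen as the identifiers of the deposited table that map to such a symbol and have a mean of at least 2 FPKM (fragments scaled to transcript length and library size) over the 6 libraries. Of the 57905 identifiers in the table, 501 had such a symbol, 447 of these had a mean above 0, 272 reached 1 FPKM and 183 reached 2 FPKM. The mean over all 6 libraries set the choice, so the level of the members is a description and not a result. Just inside the threshold lay ZNF449 at 2.02 FPKM, ZNF780B at 2.06 FPKM and ZNF275 at 2.07 FPKM, and just outside it ZNF607 at 1.998 FPKM, ZNF500 at 1.985 FPKM and ZNF34 at 1.977 FPKM.

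The libraries came from A549 cells, a long-established line from a human lung adenocarcinoma, in 2 groups of 3. The miR-19a group had received miR-19a and the miR-NC group a control microRNA, both at 25 nM by lipofection, and harvest was given as 24 h. Both groups carried the same cell line and reagent, and no other genotype, agent or time was in the series. Nothing in the labels states that the libraries of one group came from separate cultures, and the p-values therefore rest on a spread that may be technical.

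Total counts per library lay between 15699037 and 17957932. Of 6 epithelial markers, KRT7, KRT8, KRT18 and KRT19 reached mean levels between 53.2 and 593.8 FPKM, CDH1 5.998 FPKM and EPCAM 0.683 FPKM. Of the 5 tested, KRT8, KRT18 and KRT19 were higher and KRT7 and CDH1 lower with miR-19a, and the sum of all 6 was 6992 to 7167 CPM (counts scaled to library size) in miR-NC and 7558 to 7908 CPM in miR-19a. The 5 alveolar type II markers, SFTPC and NKX2-1 among them, reached at most 0.415 FPKM. The 6 fibroblast markers reached at most 1.74 FPKM, and their summed level was 8.39 to 10.3 CPM in miR-NC and 24.5 to 28.8 CPM in miR-19a, with COL1A1 as the only one tested; COL1A2, DCN and PDGFRB were near 0. The 4 immune markers reached at most 1.27 FPKM (1.78 to 2.62 CPM summed in miR-NC, 3.12 to 3.67 in miR-19a), with PTPRC and CD3E at or near 0. The part of these differences in the values of the ZNF genes was not tested.

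C2H2 zinc fingers are short folds held by a zinc ion between paired cysteines and histidines, and an array of them reads DNA sequence, or in some proteins RNA. Many ZNF proteins also carry a KRAB box, which recruits the corepressor TRIM28 and through it the histone methyltransferase SETDB1 and HP1 proteins, and this class is known for silencing transposable elements. The family grew by tandem duplication, and much of it lies in clusters on chromosome 19. A microRNA such as miR-19a lowers messenger RNAs that pair with its seed, the bases near its 5′ end, mostly through sites in the 3′ UTR.

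The proteins bore out the family name for most members. A C2H2 pattern was found in 178 of the 183 proteins predicted from GENCODE v29, with a median of 9 fingers and up to 31 in ZNF142. No finger of this pattern was found in ZNF703, ZNF330, ZNF503, ZNF839 and ZNF185, the last of which is a LIM domain protein. A KRAB box, called from its identity to a consensus, was found in 89 members. Of the 183 genes, 65 lie on chromosome 19, 19 on chromosome 16 and 16 on chromosome 7, and the others are spread over 17 further chromosomes.

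The sequences below show some of the members' miR-19a sites, while the comparison by pairing further below uses all members. The first is mature miR-19a-3p from RefSeq (GRCh38.p14, chr13:91350939-91350961, plus strand) with its seed, bases 2 to 8, in capitals. The next 6 are the 3′ UTR sites of the 5 members that fell and had a 7mer-m8 match (TTTGCAC). They were picked by that fall, and the 8 other members with a 7mer-m8 as their strongest site did not pass and are not printed. Next come 8mer sites (TTTGCACA) of the 3′ UTR, for ZNF469, which fell, ZNF518A, which rose, and ZNF367 and ZNF654, which did not pass the test. All are printed 5′ to 3′ on the transcript's strand with the match in capitals, from GENCODE v29 on GRCh38, and the coordinates are those of the capitals.

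hsa-miR-19a-3p: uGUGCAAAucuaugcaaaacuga
ZNF146, chr19:36237364-36237370, plus strand: ttcattagaaaTTTGCACctcatcatgcc
ZNF526, chr19:42226687-42226693, plus strand: ggccaaggcccTTTGCACtgcatcaccct
ZNF436, chr1:23361423-23361429, minus strand: gagggcaagatTTTGCACgatgaaggcaa
ZNF3, chr7:100070888-100070894, minus strand: taggaaaggagTTTGCACtaaactgtttt
ZNF217, chr20:53567636-53567642, minus strand: gttttcatagtTTTGCACttttatagcct
ZNF217, chr20:53567901-53567907, minus strand: tcaaaaataaaTTTGCACtgttcattttt
ZNF469, chr16:88439684-88439691, plus strand: atgtttggagaTTTGCACAacctcccgttc
ZNF518A, chr10:96161570-96161577, plus strand: ctgatgatcccTTTGCACAgaactatgctt
ZNF367, chr9:96387511-96387518, minus strand: acttgggaactTTTGCACAtttcatatttc
ZNF654, chr3:88142799-88142806, plus strand: tacacaaaacaTTTGCACAagaacacagta

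Some members carry sites in the coding sequence, and these recur in the fingers. ZNF180 has 4 coding 7mer-A1 matches (TTGCACA), all within the C2H2 pattern and with similar surroundings, and ZNF317, the member that fell most, has a coding 8mer, also within a finger.

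ZNF180, chr19:44477369-44477375, minus strand: ctcgcatcttgTTGCACAtcagagaactc
ZNF180, chr19:44477117-44477123, minus strand: ctataaacttaTTGCACAtcaaagaacac
ZNF180, chr19:44477033-44477039, minus strand: ctataaacttaTTGCACAtcaaagaattc
ZNF180, chr19:44476865-44476871, minus strand: ctctcagcttgTTGCACAtcaaagaactc
ZNF317, chr19:9160779-9160786, plus strand: tccaactttaaTTTGCACAagaagaaccac

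The comparison of miR-19a with miR-NC asked which of these transcripts differ between cells given the microRNA and cells given the control. Of the 183 ZNF genes, 18 were higher and 37 lower with miR-19a (edgeR's quasi-likelihood test, adjusted p under 0.05 over the 12452 tested genes) and 128 did not pass. That is 30.1% of the members called, beside 48.4% of all tested genes, 9.84% higher beside 24.9% and 20.2% lower beside 23.5%. Among the other protein-coding genes at 2 FPKM or more, 55.1% were called, 29.2% higher and 25.9% lower. No difference between members and other genes was tested, because genes are not replicates.

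The log2 fold changes of the members lay in a narrow range. They ran from -0.57 to 1.05 with a median of -0.01, which is also about 0 for all tested genes. Of the members, 80.3% were within 0.25 of 0, beside 62.5% of all tested genes and 66.6% of the other protein-coding genes at 2 FPKM or more. Only 7 members, or 3.83%, reached 0.5 in size, beside 13.6% and 10.8% of these 2 sets. The 2 groups of libraries did not overlap in 73 members, 28 with miR-19a above and 45 with it below, which is 39.9% beside 54.0% of all tested genes and 59.9% of the other protein-coding genes at 2 FPKM or more. The members were less deeply counted: their median mean count was 304.0 beside 516.5 and their median standard error 0.09 beside 0.07 on the log2 scale, and the part of this in the smaller share called was not tested.

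**Figure D1:**
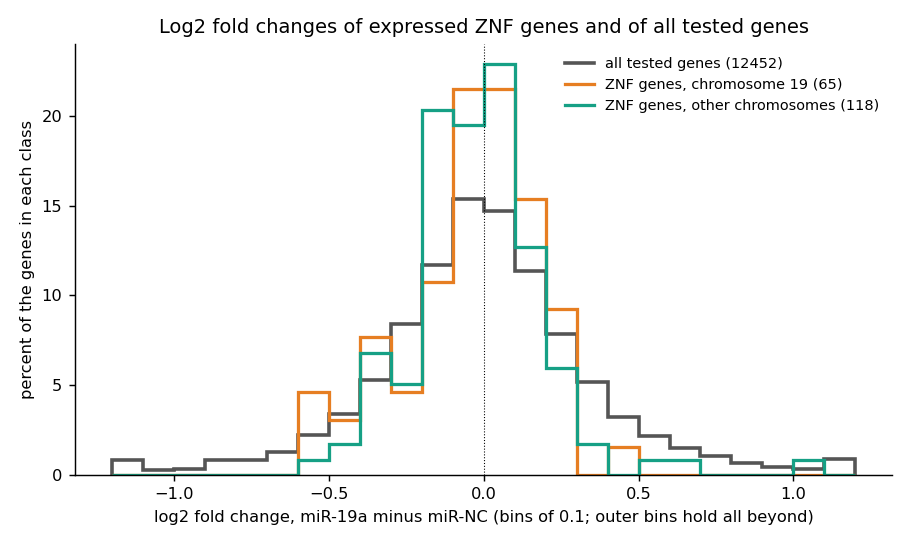
Histogram of log2 fold changes (miR-19a minus miR-NC, bins of 0.1) as a percentage of each class: all 12452 tested genes, the 65 expressed ZNF genes of chromosome 19 and the 118 on other chromosomes. Both ZNF curves are narrower than that of all tested genes, with 80.3% of the 183 members within 0.25 of 0 against 62.5%. Among the other protein-coding genes at 2 FPKM or more, not drawn, that share was 66.6%.

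Summed over the 183 members, messenger RNA was slightly lower with miR-19a. The sum was 5156, 5189 and 5110 CPM in miR-NC replicates 1 to 3 and 5003, 4984 and 5059 CPM in miR-19a replicates 1 to 3, so the groups did not overlap. ZNF146 alone, the most abundant member per length, supplied part of that gap: without it the sum was 4958 ± 49.0 CPM in miR-NC and 4862 ± 40.7 CPM in miR-19a (SD, n = 3), and the groups overlapped. The median FPKM of the members was 3.81 to 3.97 in miR-NC libraries and 3.80 to 3.90 in miR-19a libraries, so the typical ZNF level did not separate the groups. In bulk RNA, fewer cells with a transcript and less of it per cell cannot be told apart.

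ZNF467 rose most. This gene (chr7:149764182-149773479, minus strand) encodes a 12-finger factor without a KRAB box that is known from bone and fat cell differentiation. It measured 8.07, 8.12 and 6.49 CPM in miR-NC replicates 1 to 3 and 13.7, 15.3 and 17.8 CPM in miR-19a replicates 1 to 3. Every miR-19a library lay above every miR-NC library, and the log2 fold change was 1.05 (SE 0.11, adjusted p = 3.7e-12), the only member that doubled.

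ZNF512B (chr20:63956702-63969865, minus strand), whose protein binds the NuRD deacetylase complex, came second. Its level was 41.9, 44.4 and 38.2 CPM in the 3 miR-NC libraries and 69.1, 62.6 and 69.1 CPM in the 3 miR-19a libraries. The groups were far apart, and the log2 fold change was 0.69 (SE 0.06, adjusted p = 2.8e-16). Exons of ZNF512B overlap those of another gene on one strand or the other, so its counts may hold reads of that gene. The KRAB gene ZNF641 (chr12:48337180-48351414, minus strand) was next, at 13.3, 14.8 and 15.2 CPM with miR-NC and 20.9, 22.7 and 21.2 CPM with miR-19a. Its log2 fold change was 0.59 (SE 0.09, adjusted p = 3.9e-08), again without overlap.

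ZNF622 (chr5:16451519-16465792, minus strand), which takes part in the maturation of the large ribosomal subunit, was the third most abundant member at 26.0 FPKM. It gave 38.7, 41.0 and 37.8 CPM with miR-NC and 50.0, 46.8 and 53.0 CPM with miR-19a, a log2 rise of 0.35 (SE 0.06, adjusted p = 1.4e-06) without overlap. ZNF226, a KRAB gene of chromosome 19, rose from 23.9 ± 0.702 to 29.2 ± 0.483 CPM (SD, n = 3; log2 fold change 0.29, edgeR adjusted p = 0.00058). ZNF222, which lies near it, showed the widest spread among the leading rises. It measured 4.04, 4.44 and 4.52 CPM with miR-NC and 7.21, 6.42 and 4.74 CPM with miR-19a, so that miR-19a replicate 3 lay just above the controls. Its log2 fold change of 0.50 (SE 0.16, adjusted p = 0.0090) fell to 0.36 with an adjusted p of 0.106 without miR-19a replicate 1, and 13.4% of its transcript's 100-base stretches also occur in another annotated gene.

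The other leading rises were small. They were ZNF92, ZNF267, ZNF274, ZNF189, ZNF518A and ZNF268, with log2 fold changes of 0.30, 0.27, 0.27, 0.25, 0.24 and 0.23. Of these, ZNF274 and ZNF518A kept their call in every one of 15 other fits. By contrast, ZNF92, ZNF267, ZNF189 and ZNF268 lost it with DESeq2, with limma on FPKM at both pseudocounts and without single libraries. ZNF92 lost it without miR-19a replicate 1 (adjusted p = 0.0694), miR-19a replicate 2 (0.133) or miR-NC replicate 2 (0.144), and ZNF267 without miR-19a replicate 3 (0.0716) or miR-NC replicate 2 (0.197, log2 fold change 0.15). ZNF189 lost it without miR-19a replicate 1 (0.211, log2 fold change 0.16) or miR-NC replicate 3 (0.120). ZNF268 lost it without miR-19a replicate 2 (0.0695), miR-19a replicate 3 (0.112), miR-NC replicate 1 (0.0551) or miR-NC replicate 2 (0.0739).

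ZNF317 fell most. This KRAB gene of chromosome 19 (chr19:9140380-9163424, plus strand) carries the coding 8mer printed above and a 6mer in its 3′ UTR. It measured 34.3, 33.8 and 34.4 CPM in miR-NC replicates 1 to 3 and 23.6, 20.6 and 24.9 CPM in miR-19a replicates 1 to 3. All miR-19a libraries were below all miR-NC libraries, and the log2 fold change was -0.57 (SE 0.07, adjusted p = 6.5e-10).

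ZNF385A (chr12:54369133-54391298, minus strand), an RNA-binding cofactor of p53, gave 42.5, 41.7 and 36.6 CPM with miR-NC and 25.3, 28.2 and 28.3 CPM with miR-19a. Its log2 fold change was -0.56 (SE 0.07, adjusted p = 1.8e-10), without overlap and without a miR-19a site in its 3′ UTR. ZNF524 (chr19:55600022-55603138, plus strand), a telomere-binding protein, gave 18.1, 16.7 and 15.3 CPM against 11, 11.4 and 12.1 CPM. It fell by 0.54 on the log2 scale (SE 0.10, adjusted p = 3.5e-06), and the groups again did not overlap.

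ZNF584 (chr19:58401504-58418327, plus strand), a KRAB gene with a 7mer-A1 in its 3′ UTR, gave 21.5, 19.4 and 19.4 CPM with miR-NC and 14.8, 14.5 and 13.5 CPM with miR-19a. The log2 fold change was -0.50 (SE 0.09, adjusted p = 2.4e-06), with no overlap. ZNF296, known as a partner of the pluripotency factor KLF4, gave 6.99, 7.06 and 7.89 CPM against 5.16, 4.18 and 6.10 CPM. Its libraries were the most scattered of the leading falls, and its log2 fold change of -0.50 (SE 0.15, adjusted p = 0.0037) became -0.37 with an adjusted p of 0.0571 without miR-19a replicate 2.

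The remaining leading falls were ZNF436, ZNF580, ZNF319, ZNF689, ZNF526, ZNF839 and ZNF786, between -0.46 and -0.37. As the choice required, all 7 had every miR-19a library below every miR-NC library. ZNF786 alone among them lost its call when a library was left out, with adjusted p values of 0.0963 (miR-19a replicate 1 removed) and 0.0663 (miR-NC replicate 2 removed). ZNF580 shares 15.1% of its exon bases with CCDC106 and ZNF581, ZNF839 shares 24.7% with CINP and ZNF524 14.1% with FIZ1, so the counts of these genes may hold reads of a neighbour.

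**Figure D2:**
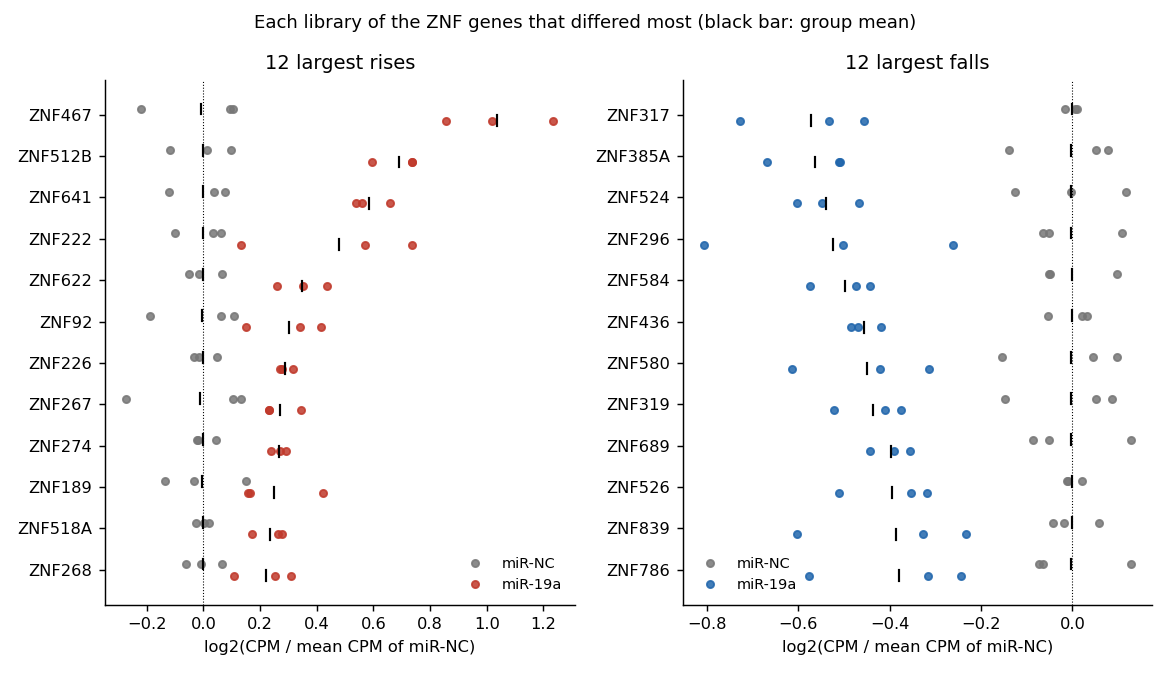
Each point is 1 library, as log2 of its CPM over the mean CPM of miR-NC for that gene; grey is miR-NC, red or blue is miR-19a, and black bars are group means (n = 3). The 24 genes were chosen among called members whose groups did not overlap, so the separation in each was set by the choice. It is wide in ZNF467 and ZNF317 and narrow in ZNF189 and ZNF222.

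Per length, the most abundant members were ZNF146 at 41.6 FPKM, ZNF428 at 26.2 FPKM, ZNF622 at 26.0 FPKM, ZNF768 at 20.5 FPKM and ZNF664 at 20.1 FPKM. ZNF146 (chr19:36214602-36238774, plus strand) encodes little more than 10 fingers and is known for raised levels in pancreatic and colorectal tumours. It measured 193.6, 185.1 and 203.2 CPM with miR-NC and 157.6, 152.3 and 151.1 CPM with miR-19a. The groups lay well apart (log2 fold change -0.34, SE 0.04, adjusted p = 1.9e-10), 10.8% of its exon bases overlap ZNF565, and its 7mer-m8 starts at base 45 of a 3′ UTR of 1452 bases. The other 3 abundant genes besides ZNF622 moved little: ZNF428 had a log2 fold change of 0.04 and ZNF768 of -0.05, neither past the test, and ZNF664 of -0.11 (adjusted p = 0.030). The call of ZNF664 was lost without miR-19a replicate 1 (0.148), miR-19a replicate 3 (0.0900) or miR-NC replicate 3 (0.120).

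By position, 5 of the 65 members on chromosome 19 were higher and 13 lower, 27.7% called in all, and 13 of the 118 on other chromosomes were higher and 24 lower, 31.4% called. The 681 other protein-coding genes tested on chromosome 19 had 185 higher and 170 lower, 52.1% called. The 571 of them at 2 FPKM or more had 156 higher and 157 lower, 54.8% called. The medians of the members were -0.02 on chromosome 19 and -0.01 elsewhere. Summed CPM of the chromosome 19 members, ZNF146 among them, was 1554, 1558 and 1548 in miR-NC replicates 1 to 3 and 1490, 1449 and 1478 in miR-19a replicates 1 to 3, without overlap. ZNF146 supplied part of that gap too. On the other chromosomes the sums were 3603, 3631 and 3562 CPM with miR-NC and 3513, 3535 and 3581 CPM with miR-19a, and these did overlap. Without miR-19a replicate 1, 3 chromosome 19 members were higher and 11 lower.

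Along chromosome 19 the members fell into 11 stretches in which neighbouring starts were no more than 1 Mb apart, 3 of them with a single gene (ZNF791, ZNF507 and ZNF473). The largest held 28 genes near the end of the long arm (55476332 to 58481230), of which 3 were higher and 6 lower. Its extremes were ZNF548 at 0.28 and ZNF524 at -0.54. The next, with 10 genes (43596392 to 45076588), held the fall of ZNF296 and the rises of ZNF222 and ZNF226, so both directions occurred there. In the stretch of 6 around ZNF146 (36214602 to 37469275), ZNF146 and ZNF260 fell and the other 4 did not pass. In the stretch of 6 from 52269571 to 53580269, ZNF766 fell by 0.34 (log2, adjusted p = 0.00092) and the others did not pass.

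ZNF526 and ZNF574 form a pair of neighbours (42068477 to 42228201), neither with a KRAB box, and both fell. ZNF526 gave 33.0, 32.2 and 32.3 CPM with miR-NC and 22.8, 25.4 and 26.1 CPM with miR-19a (log2 fold change -0.39, SE 0.07, adjusted p = 3.9e-06). ZNF574 gave 49.8, 53.0 and 51.1 CPM against 41.2, 40.5 and 43.1 CPM (-0.30, SE 0.06, adjusted p = 1.4e-05). Neither gene's groups overlapped. ZNF526 has the 7mer-m8 printed above and ZNF574 has no miR-19a site in its 3′ UTR.

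Some calls in these stretches rested on single libraries. ZNF260 (-0.16, adjusted p = 0.026) lost its call without miR-19a replicate 1 (0.0885), miR-19a replicate 3 (0.0903) or miR-NC replicate 1 (0.144). ZNF548 (0.28, adjusted p = 0.044) lost it without miR-19a replicate 1 (0.181), miR-19a replicate 3 (0.112), miR-NC replicate 2 (0.176) or miR-NC replicate 3 (0.0962). ZNF548 shares 20.1% of its 100-base stretches with another annotated gene.

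**Figure D3:**
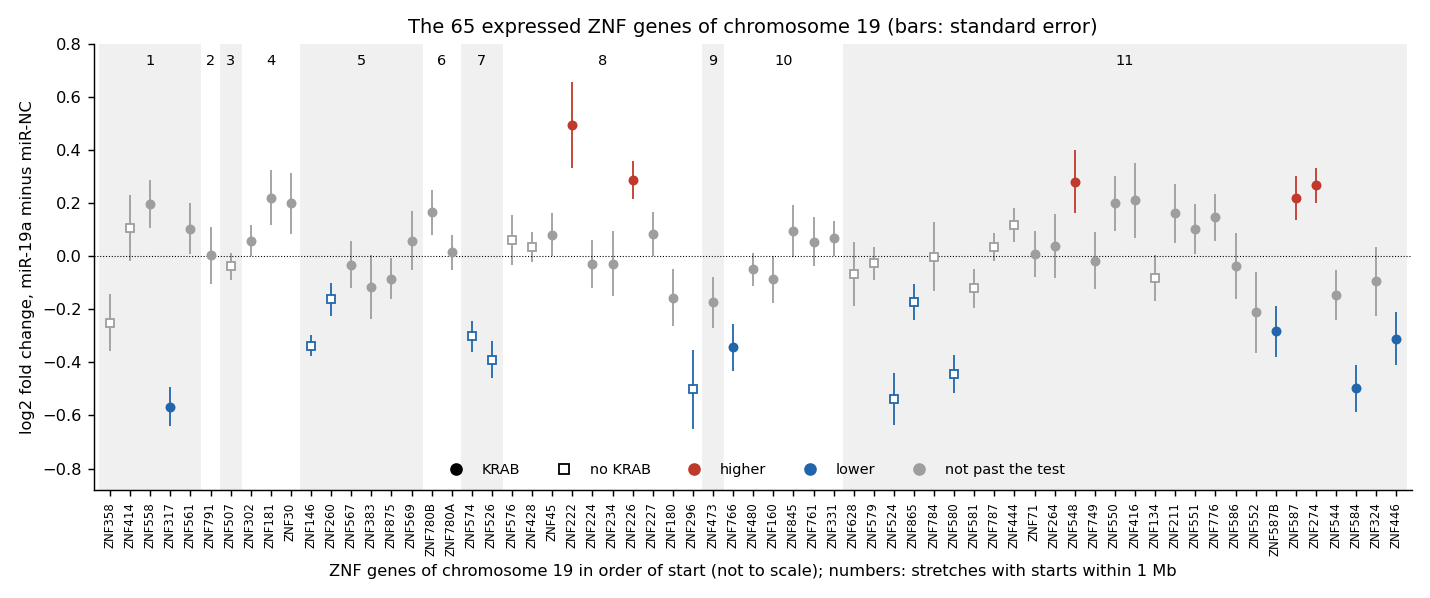
Log2 fold change (points) and standard error (bars) of the 65 expressed ZNF genes of chromosome 19 in order of start, not to scale; filled circles have a KRAB box, open squares do not, and red, blue and grey mark higher, lower and not past the test. Shading and numbers mark the 11 stretches, of which 2, 3 and 9 hold a single gene, and both directions occur in stretches 8 and 11.

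On chromosome 19 the direction of the calls changed with the level of the gene. At 5 FPKM or more, 18 ZNF genes of this chromosome had 0 higher and 8 lower (44.4%). Among the 8 were ZNF146, ZNF317, ZNF524, ZNF526, ZNF574 and ZNF580. Between 2 and 5 FPKM, 47 genes had 5 higher and 5 lower (10.6% each). Between 1 and 2 FPKM, below the members, 40 genes had 11 higher (27.5%) and 1 lower (2.5%), with a median log2 fold change of 0.19. Of all tested genes, 24.9% were higher and 23.5% lower. ZNF121, ZNF460, ZNF417, ZNF225 and ZNF235 were among those 11, and ZNF566 was the one that fell.

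In the other classes of genes both directions were called at every level. The other protein-coding genes of chromosome 19 had 127 higher and 135 lower of 457 at 5 FPKM or more (27.8% and 29.5%). They had 29 and 22 of 114 between 2 and 5 FPKM (25.4% and 19.3%), and 18 and 12 of 70 between 1 and 2 FPKM (25.7% and 17.1%). ZNF genes of other chromosomes had 6 and 10 of 42 (14.3% and 23.8%), 7 and 14 of 76 (9.21% and 18.4%), and 4 and 7 of 49 (8.16% and 14.3%). These bands were drawn after the values were seen and no test was made of them. Across the other fits, the number of rises between 1 and 2 FPKM was 5 to 11 (7 without miR-19a replicate 2 or without miR-NC replicate 3), with 1 fall in each, and 3 with a minimum fold of 1.2. The number of falls at 5 FPKM or more was 6 to 9, with 0 rises in each, and 3 with that minimum fold. The median mean count was 112.4 in the lowest band and 652.9 in the highest.

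**Figure D4:**
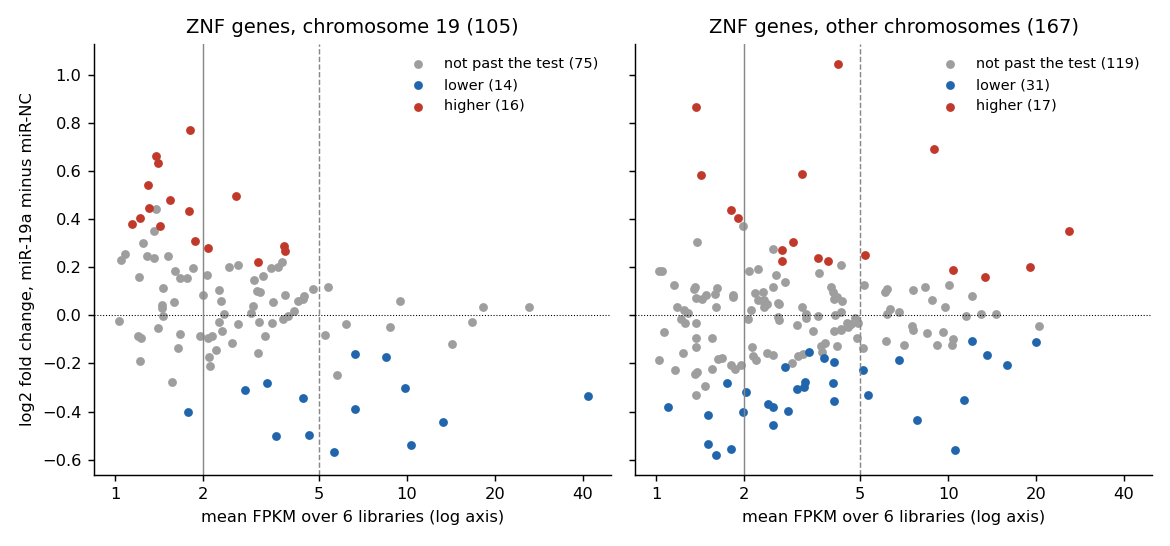
Log2 fold change against mean FPKM (log axis) for all 272 ZNF genes at 1 FPKM or more, 105 on chromosome 19 (left) and 167 on other chromosomes (right), with vertical lines at 2 FPKM (the members' threshold) and 5 FPKM. On the left the red points (higher) sit at low levels and the blue points (lower) mostly at high levels, and on the right both colours occur over the whole range.

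By protein type, the 89 KRAB members had 10 higher and 13 lower and the 94 without the box had 8 higher and 24 lower. On chromosome 19, 20 members without KRAB had 0 higher and 8 lower and 45 with KRAB had 5 higher and 5 lower, which is 40% and 22.2% called beside 48.4% of all tested genes. The 8 were ZNF146, ZNF260, ZNF526, ZNF574, ZNF296, ZNF524, ZNF580 and ZNF865. All of these but ZNF296 are also among the 8 falls at 5 FPKM or more, so level and protein type were not told apart here. On other chromosomes, the 44 KRAB members had 5 higher and 8 lower, and the 74 without it 8 higher and 16 lower. The number of KRAB members called higher was 4 with DESeq2, 5 with limma and 6 without miR-19a replicate 1.

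Members without KRAB were the more abundant, with a median mean level of 5.56 FPKM beside 3.09 FPKM and a median of 6 fingers beside 11. Their summed level was 3565 ± 37.3 CPM with miR-NC and 3460 ± 38.2 CPM with miR-19a (SD, n = 3), and that of the KRAB members 1587 ± 5.38 and 1556 ± 6.30 CPM. Neither pair of groups overlapped. ZNF146 is in the sum without KRAB, and the sum over all members did overlap once ZNF146 was left out. The sum of the members without KRAB was not taken without that gene, so its separation may rest on ZNF146. By finger number, 14 members had 0 to 1 fingers, 29 had 2 to 4, 61 had 5 to 9, 51 had 10 to 14 and 28 had 15 or more. In that order, 2, 4, 4, 5 and 3 were higher and 3, 5, 12, 11 and 6 lower. The shares called were 35.7%, 31.0%, 26.2%, 31.4% and 32.1%, with no steady order, beside 48.4% of all tested genes.

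Base composition of the transcript went with direction. Over 4 ranges of GC content with about equal numbers of members (bounds at 42.0%, 48.2% and 58.9%), 8, 5, 3 and 2 members were higher and 6, 8, 11 and 12 lower from the lowest range to the highest. Among the other protein-coding genes at 2 FPKM or more, the share higher went from 30.6% in the lowest range to 26.6% in the highest and the share lower from 22.2% to 29.9%. KRAB members numbered 24, 31, 25 and 9 in the 4 ranges, so the highest range held the fewest and the lower 3 showed no steady trend. The separate parts of GC content and protein type were not tested.

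Grouped by known role, 5 listed ZNF repressors of retroelements were tested, 3 of them higher and 0 lower. Of all tested genes, 24.9% were higher and 23.5% lower, and the counts of this and the other short role lists stand beside those shares. ZNF587 and ZNF248 were the members among them. ZNF587, a primate gene that represses endogenous retroviruses together with its close relative ZNF417, gave 18.2, 23.5 and 22 CPM with miR-NC and 23.3, 27.0 and 23.7 CPM with miR-19a. These groups overlapped, and its log2 fold change of 0.22 (adjusted p = 0.022) fell to 0.12 without miR-NC replicate 1 (adjusted p = 0.294) and to 0.15 without miR-19a replicate 2 (0.202). ZNF587 shares 12.4% of its 100-base stretches with another gene, and the shared reads of ZNF587 and ZNF417 may have been split between them. Its exons also overlap those of ZNF814 and another gene over 35.0% of their bases. ZNF248 had a log2 fold change of 0.05 and did not pass. ZNF417 (0.54) and ZNF460 (0.66) passed below the members' threshold.

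Next to ZNF587 lies ZNF587B, which moved the other way. It was lower with miR-19a by a log2 value of -0.28 (SE 0.10, adjusted p = 0.011). As 22.9% of its 100-base stretches also occur in another annotated gene, this value is uncertain. The call was lost without miR-NC replicate 2.

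Of 5 ZNF genes listed for imprinting or for the heterochromatin of zinc finger genes, 1 was higher and 0 lower. The one was ZNF274, a KRAB protein that brings SETDB1 to the 3′ ends of other ZNF genes. It gave 28.6, 29.98 and 28.7 CPM with miR-NC and 34.3, 35.1 and 35.6 CPM with miR-19a, without overlap (log2 fold change 0.27, SE 0.07, adjusted p = 0.00054). ZNF202, a repressor of lipid transport genes, had -0.16 and ZNF75A 0.10, neither past the test.

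Most promoter-binding and architectural factors did not pass the test. Of 9 tested, 2 were higher and 0 lower, and of the 7 members among them only ZNF281 passed. The other was ZNF121, below the members' threshold, at 0.77 (adjusted p = 1.3e-06). The groups did not overlap in 44.4% of the 9, ZNF24 (miR-19a above) and ZNF143 (miR-19a below) among them, beside 54.0% of all tested genes. ZNF281, which binds GC-rich promoters, gave 88.4, 87.5 and 87.3 CPM with miR-NC and 96.7, 104.4 and 100.995 CPM with miR-19a (log2 fold change 0.20, SE 0.05, adjusted p = 0.00024). Its related factor ZNF148 had 0.05. ZNF143, a factor of promoters and chromatin loops, had -0.13, ZNF384, which binds A-rich elements, -0.0015, ZNF24 0.10, ZNF740 0.06 and ZNF263 -0.13, and none of these passed.

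Among proteins that act on RNA, ribosomes or the spindle, 4 were higher and 3 lower of 12 tested, 11 of them members. ZNF598, the ubiquitin ligase that senses collided ribosomes, fell: it gave 79.4, 80.7 and 81.3 CPM with miR-NC and 67, 67.2 and 75.2 CPM with miR-19a. Its groups did not overlap (log2 fold change -0.20, SE 0.05, adjusted p = 0.00058). ZNF622 rose, as given above, and ZNF593, another factor of ribosome assembly, had 0.08 and did not pass. ZNF385A fell, as given above.

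ZNF706, a small single-finger protein, rose from 72.5 ± 1.90 to 82.5 ± 2.20 CPM (SD, n = 3; log2 fold change 0.19, edgeR adjusted p = 0.0011). ZNF346, which binds double-stranded RNA, rose by 0.22 (log2, adjusted p = 0.022) and lost the call without miR-19a replicate 1 (0.0798) or miR-NC replicate 2 (0.0697). ZNF330, a nucleolar protein, had 0.16 (adjusted p = 0.048), and its groups overlapped. It lost the call without miR-19a replicate 2 (0.194), miR-19a replicate 3 (0.0749), miR-NC replicate 1 (0.289, log2 fold change 0.10) or miR-NC replicate 2 (0.120), and in 7 of the 9 other fits.

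ZNF207, a spindle protein that loads BUB3 onto kinetochores and the most counted member, had -0.10 (199.7 ± 8.01 to 185.8 ± 1.56 CPM, SD, n = 3; edgeR adjusted p = 0.025). That call was lost without miR-19a replicate 1 (0.0577), miR-19a replicate 2 (0.0628), miR-19a replicate 3 (0.0534) or miR-NC replicate 1 (0.177), and 17.3% of its 100-base stretches occur in another gene. ZNF326 (-0.06) and ZNF638 (-0.04), which act in splicing and in silencing of retroviral DNA, and ZNF277 (0.09) did not pass.

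Partners of the EHMT methyltransferases and of ZMYND8 had 0 higher and 1 lower of 4. The one was ZNF687, at 39.5, 39.9 and 34.5 CPM with miR-NC and 30.2, 28.3 and 31.9 CPM with miR-19a. Its groups did not overlap (log2 fold change -0.33, SE 0.07, adjusted p = 3.3e-05). ZNF592 (0.11) and ZNF532 (0.12), its relatives in the same complex, had positive values that did not pass, and the EHMT partner ZNF644 had -0.01.

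Among factors that work with CtBP or NuRD or are known from tumours, 1 of 4 was higher and 1 lower. ZNF512B rose, as given above. ZNF217, a breast cancer oncogene with 2 of the 7mer-m8 sites printed above, gave 85.2, 94.9 and 87.1 CPM with miR-NC and 77.3, 82.9 and 78.4 CPM with miR-19a. Its log2 fold change was -0.16 (SE 0.05, adjusted p = 0.0045), and -0.12 with an adjusted p of 0.0593 without miR-NC replicate 2. ZNF703 (0.18) and ZNF395 (0.19) did not pass, and 41.1% of the 100-base stretches of ZNF395 also occur in another gene.

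Sites for miR-19a were about as common in the members as in other genes. A 7mer or 8mer lay in the 3′ UTR of 35 of the 180 members with a 3′ UTR (19.4%) and of 18.7% of 10459 tested genes with one. An 8mer was in 5 members (2.78%, beside 6.03%), a 7mer-m8 in 13 (7.22%, beside 7.38%) and a 7mer-A1 in 17 (9.44%, beside 5.24%), counting each gene once under its strongest class. The members' median 3′ UTR was 1171 bases long, beside 988 for tested genes.

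Of the 35 members with a 7mer or 8mer, 2 were higher and 9 lower (5.71% and 25.7%, beside 24.9% and 23.5% of all tested genes), and of the 145 without either in their 3′ UTR, 16 were higher and 27 lower (11% and 18.6%). The medians of both sets were -0.01. By class, 8mers had 1 higher and 1 lower of 5, 7mer-m8 sites 0 and 5 of 13, 7mer-A1 sites 1 and 3 of 17, members with no match longer than a 6mer (TTGCAC) 3 and 6 of 26, and members with no site 13 and 21 of 119. The median was -0.12 for 7mer-m8 genes and 0.06 for 8mer genes. Of the 37 falls, 28 were in members with no match of 7 bases or more in the 3′ UTR used here, 1 of which, ZNF587B, had no annotated 3′ UTR. Most members lack such a match, which only 19.4% of the 180 with a 3′ UTR had, so this count is no result about sites.

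The 8mer members did not move together. ZNF469, a gene of collagen structure in the cornea, fell: it gave 39.5, 42.2 and 37.8 CPM with miR-NC and 31.8, 33.9 and 37.1 CPM with miR-19a (log2 fold change -0.22, SE 0.07, adjusted p = 0.0044). The groups were separated narrowly, and without miR-19a replicate 1 the value was -0.17 with an adjusted p of 0.0593. ZNF518A, an 8mer of which is printed above, rose: it gave 35.5, 36.2 and 36.6 CPM against 43.3, 43.7 and 40.6 CPM, without overlap (0.24, SE 0.06, adjusted p = 0.00098). ZNF367 had 0.10, ZNF654 0.06 and ZNF623 0.01, none past the test.

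The 7mer-m8 members that fell were ZNF436, ZNF526, ZNF146, ZNF3 and ZNF217. ZNF436 gave 12.4, 13.1 and 13.2 CPM with miR-NC and 9.64, 9.31 and 9.21 CPM with miR-19a, without overlap (log2 fold change -0.46, SE 0.11, adjusted p = 0.00026). ZNF3 had -0.23 (SE 0.07, adjusted p = 0.0075), lost its call without miR-19a replicate 2, and shares 16.2% of its exon bases with another gene. The highest value in the class was 0.06.

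**Figure D5:**
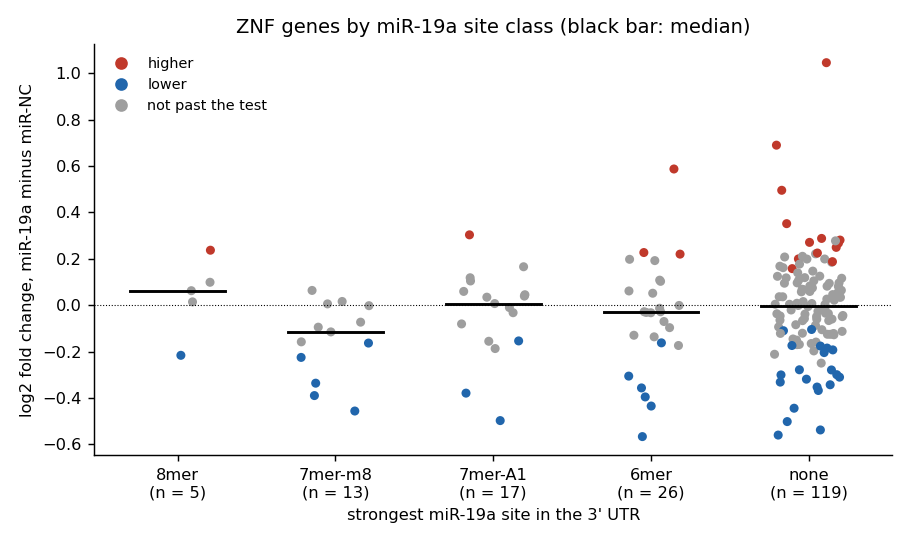
Log2 fold change of each member (points) by its strongest miR-19a site in the 3′ UTR, with class medians as black bars; red, blue and grey mark higher, lower and not past the test. The 13 members with a 7mer-m8 have a median of -0.12 and no red point, and the 119 with no site include the largest rise (1.05) and 21 of the falls.

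Coding sites of 7 bases or more occurred in 41 of the 183 members (22.4%), beside 14.4% of 10574 tested genes with a coding sequence, with no account taken of coding length. Of their 52 sites, 23 (44.2%) lay within a C2H2 pattern, which covers 29.2% of the members' coding bases, and 18 of these 23 began at the same codon phase. The 41 members had 4 higher and 8 lower, 29.3% called, and the 142 others 14 higher and 29 lower, 30.3% called. A coding 8mer was in 5 members: ZNF317 fell, ZNF281 and ZNF518A rose, and ZNF551 and ZNF79 did not pass. ZNF180, with 4 coding sites and a 7mer-A1 in its 3′ UTR, had -0.16 and did not pass.

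The corepressors through which KRAB proteins act changed in both directions. Of 12 genes listed for the TRIM28 complex, 3 were higher and 3 lower, 50.0% called, near the 48.4% of all tested genes. TRIM28, the scaffold, gave 544.2, 548.96 and 540.8 CPM with miR-NC and 452.4, 451.9 and 492.7 CPM with miR-19a, without overlap (log2 fold change -0.23, adjusted p = 5.2e-07). SETDB1 rose by 0.18 (adjusted p = 0.017) and lost the call with DESeq2 (0.0507) and without miR-19a replicate 1 (0.0761). CBX5 (0.29) and HDAC1 (0.29) rose, and CBX1 (-0.18) and HDAC2 (-0.21) fell.

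The HUSH complex and MORC proteins, which silence retroelements alongside this system, had 0 higher and 2 lower of 6 (33.3% called, beside 48.4% of all tested genes). These were TASOR2 at -0.27 and MORC2 at -0.20, whose call was lost without miR-19a replicate 1 (0.0732) or miR-NC replicate 2 (0.116). Of 9 tested genes listed for H3K9 and DNA methylation, most of them enzymes, 55.6% were called, beside the same 48.4%. SUV39H2 (0.34), DNMT3B (0.34) and DNMT3A (0.23) rose and DNMT1 (-0.25) and EHMT2 (-0.31) fell. DNMT3B lost its call without miR-19a replicate 3 (0.0611) or miR-NC replicate 3 (0.0623), and DNMT3A without miR-19a replicate 1 (0.116), miR-19a replicate 2 (0.0697) or miR-NC replicate 1 (0.151).

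Zinc finger genes with other family names, picked by symbol, were called at shares between 25.0% and 63.6%, beside 48.4% of all tested genes, with no test against the ZNF genes. The 32 tested ZBTB genes, which join fingers to a BTB domain, had 6 higher and 9 lower, 46.9% called and so near that share. ZBTB34 at 0.78 and ZBTB18 at -0.79 were the extremes. The 11 ZFP genes had 2 higher and 5 lower, the 8 ZSCAN genes 1 and 1 and the 5 ZKSCAN genes 0 and 2. ZFP36, whose fingers are not C2H2 and bind AU-rich RNA, is counted among the 2 higher ZFP genes. It rose by 0.59, and ZFP91 fell by 0.36.

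Counts of such related genes are uncertain where sequence is shared. In 22 members, over 5% of the transcript's 100-base stretches also occur in another gene's transcripts, and these had 3 higher and 2 lower (13.6% and 9.09%). In 94 members, exons overlap those of another gene on either strand, and these had 6 higher and 21 lower (6.38% and 22.3%). The shares were 9.84% and 20.2% of all 183 members, and 24.9% and 23.5% of all tested genes. No source used here gives the strand setting of the counts, so reads of overlapping genes cannot be told apart. Without those 94 genes, 12 members were higher and 16 lower of 89.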

How the data were processed

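Poly(A)-selected RNA was sequenced as paired reads, per the labels' protocols, and bcl2fastq 2.17.1.14 is the one tool listed in the submitters' processing notes. Aligner, counter, annotation, strand and build were not given in the sources used here. Counts, as deposited, are whole numbers per gene identifier and not normalized. The FPKM columns were made by the authors, with that unit taken from their names. They were used to choose genes, to compare levels between genes, for the median FPKM per library and in the limma alternatives. Of 57905 identifiers, 51996 were named by the gene name table, 342 by GENCODE v29 only and 5567 by neither. All rows carry an Ensembl gene identifier.

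Genes with a mean of at least 1 FPKM were tested with edgeR 4.0.16 (quasi-likelihood, TMM, two-sided, Benjamini-Hochberg) in R 4.3.3, 3 libraries against 3, after the same fit was tested on simulated data. CPM are TMM-scaled, and standard errors were derived from the fold change and the F statistic. Total counts lay between 15699037 and 17957932, and the common biological coefficient of variation was 0.0352. Sites, fingers and KRAB boxes (at least 12 of 40 consensus residues) came from the transcript with the longest complete coding sequence in GENCODE v29 on GRCh38. Sites were searched on the transcript's strand as TTGCAC (6mer), TTGCACA (7mer-A1), TTTGCAC (7mer-m8) and TTTGCACA (8mer), the shorter lying within the longer.

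Alternatives were DESeq2 1.42.0, limma 3.58.1 on log2(FPKM + 1) and log2(FPKM + 0.1), other factors, filters and member thresholds, a fold minimum, a replicate block, and each library left out. Python 3.11.15, pandas 2.3.3 and numpy 2.4.6 were used. The members, lists and tests were chosen with earlier results of these data known. Named members are the 12 largest rises and 12 largest falls past the threshold with separated groups, 8mer genes, the 5 highest by FPKM, the role lists, the 3 nearest genes on each side of the FPKM threshold and the extremes of each chromosome 19 stretch, and for the partner lists TRIM28, SETDB1 and up to 3 genes in each direction. Members named beside these were chosen after their values were seen. A further site sequence is not reported here.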

Additional observations from a re-analysis of the deposited data

How the results depend on the processing

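More members were lower than higher in every fit run on all 183 (10 to 18 higher, 29 to 41 lower), and 3 against 6 with a minimum fold of 1.2. Leaving out 1 library gave 13 to 16 higher and 29 to 37 lower, 3 to 6 and 11 to 14 on chromosome 19, 10 to 12 and 18 to 24 elsewhere, and a median log2 fold change from -0.026 to -0.0050. For all tested genes it gave 2761 to 2982 higher and 2552 to 2802 lower. Of the members called, 9 of 18 rises and 21 of 37 falls were kept in all 15 other fits without a fold minimum.

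With DESeq2, 10 members were higher, 3 on chromosome 19 and 7 elsewhere, and limma called 3 higher on chromosome 19 with either pseudocount. The minimum fold of 1.2 left 0 higher and 4 lower on chromosome 19, 3 and 2 elsewhere, and 1076 and 869 of all tested genes. At a threshold of 1 FPKM, 33 of 272 members were higher, 16 of them on chromosome 19, and at 5 FPKM 6 of 60 were higher (0 on chromosome 19, 6 elsewhere) and 18 lower (8 and 10). Leaving out members with overlapping exons gave 16 lower of 89, 6 on chromosome 19 and 10 elsewhere, with 2 higher on chromosome 19, and leaving out shared sequence also gave 2 higher there. The median log2 fold change was -0.029 with library totals alone, -0.030 with limma at a pseudocount of 0.1, 0.00083 at 1 FPKM, -0.055 at 5 FPKM and 0.0037 without overlapping exons. The median of all tested genes moved as well, from -0.0045 in the main fit to -0.020 with library totals alone and -0.018 with limma at a pseudocount of 0.1. The cause of these shifts was not tested, apart from the smaller or larger sets of members.

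Genes near 0 that did not pass changed sign. ZNF623 was at -0.0018 with library totals, -0.0013 and -0.0015 with limma (pseudocounts 1 and 0.1), and -0.014 to 0.053 over the leave-one-out fits. ZNF384 was at 0.0062 with no filter, 0.0013 with edgeR's own filter, and -0.057 to 0.032 with 1 library left out. The same range was -0.054 to 0.27 for ZNF654, -0.018 to 0.17 for ZNF248, -0.0063 to 0.096 for ZNF148, -0.028 to 0.0019 for ZNF644, -0.073 to 0.032 for ZNF275 and -0.0071 to 0.19 for ZNF607.

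Same-numbered libraries did not deviate together (correlations of 0.0085, 0.00055 and -0.031), so the number was not used as a pairing. With it as a replicate block, 18 members were higher and 38 lower. Depth limits the members with low counts most: the median standard error was 0.09 (log2) over the members and 0.07 over all tested genes.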
